A study of Mus musculus with 7 samples.

Results

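Genes that encode subunits of RNA polymerase II (RNAP2) were examined in ChIP-seq data from mouse skeletal muscle, in which RNAP2 itself was immunoprecipitated beside the clock factors BMAL1 and REV-ERBα. The members were the 10 genes *Polr2a*, *Polr2b*, *Polr2c*, *Polr2d*, *Polr2e*, *Polr2f*, *Polr2g*, *Polr2h*, *Polr2i* and *Polr2k*, of 21938 protein-coding genes in the annotation. They were chosen by name and do not make up the whole enzyme, and genes of its remaining subunits were not analysed here. A deposited peak was assigned to a member when it overlapped the gene body or lay within 10 kb of any of its annotated transcription start sites (TSSs) on mm10. The samples were gastrocnemius muscles of wild type male C57BL/6J mice, 5 months of age. Chromatin was immunoprecipitated for BMAL1 at Zeitgeber time (ZT) 4, for RNAP2 (clone 8WG1) at ZT 4 and for REV-ERBα (a mix of antibodies) at ZT 8, with 2 biological replicates each, and input DNA was the control for peak calling, of which the sample labels hold 1 library, of ZT 4. Factor and time were thus not crossed, and no knockout or treated arm entered these data. Each factor was listed separately for each replicate, which gave 6 lists of peaks, and reads per peak are unknown. With 2 lists per factor no test across samples was made, so counts of members are read beside the share of all protein-coding genes. A peak within 1 kb of an annotated TSS is called a promoter peak, and overlapping peaks of the 2 replicates were joined into regions.

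RNAP2 is the enzyme that transcribes protein-coding genes. Its catalytic core is formed by the products of *Polr2a*, the largest subunit, whose repeated C-terminal tail is phosphorylated during transcription, and *Polr2b*, its partner in the active site. *Polr2c* encodes an assembly subunit, *Polr2d* and *Polr2g* encode the stalk that contacts nascent RNA, and *Polr2i* encodes a subunit linked to start site choice and fidelity. *Polr2e*, *Polr2f*, *Polr2h* and *Polr2k* encode subunits that are also part of RNA polymerases I and III. BMAL1 activates transcription from E-boxes (CACGTG), and REV-ERBα represses it from elements built on the nuclear receptor hexamer AGGTCA.

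The promoter that stood out in these data was that of *Polr2a*, and the promoter of *Polr2c* was the only member promoter without an RNAP2 peak in either list. Their upstream sequences are shown for that reason, 5′ to 3′ on the coding strand, from RefSeq on GRCm38.p6. The *Polr2a* sequence is chr11:69758638-69758883 on the minus strand, 246 bases that end just before its annotated first exon. The *Polr2c* sequence is chr8:94857200-94857449 on the plus strand, 250 bases. Capitals mark matches to any of 9 motifs searched on both strands.
Polr2a: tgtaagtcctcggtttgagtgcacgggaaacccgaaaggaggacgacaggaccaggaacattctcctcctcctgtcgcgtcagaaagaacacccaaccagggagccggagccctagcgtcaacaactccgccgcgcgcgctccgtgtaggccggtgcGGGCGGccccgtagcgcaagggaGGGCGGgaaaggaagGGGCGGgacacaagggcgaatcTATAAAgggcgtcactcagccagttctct
Polr2c: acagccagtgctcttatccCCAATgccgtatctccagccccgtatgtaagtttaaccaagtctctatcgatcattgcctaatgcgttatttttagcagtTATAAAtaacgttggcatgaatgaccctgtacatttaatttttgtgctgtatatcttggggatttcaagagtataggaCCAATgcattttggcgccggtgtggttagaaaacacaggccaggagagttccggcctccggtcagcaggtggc
In the *Polr2a* sequence the capitals mark 3 copies of the GC box GGGCGG, which begin 93, 70 and 55 bases before the RefSeq TSS, and a TATA box TATAAA that begins 33 bases before it. A TATAAA on the coding strand that begins from 36 to 24 bases upstream was found in 592 of 32851 RefSeq mouse promoters, or 1.8%. In the *Polr2c* sequence the capitals mark the CCAAT box (CCAAT) in 2 places, 231 and 73 bases upstream, and a TATAAA 151 bases upstream, outside that range. The upstream 250 bases of *Polr2a* held 23 CpG dinucleotides and 62.8% G and C, those of *Polr2c* 9 CpG dinucleotides and 45.6%.

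Of the 10 members, 7 had a RefSeq promoter entry, from 250 bases before to 50 after a TSS, and *Polr2h* had 2 entries, which made 8 promoters. *Polr2d*, *Polr2g* and *Polr2k* had no entry. The GC box GGGCGG, a site of SP factors, was found in 6 of the 8, at *Polr2a*, *Polr2b*, *Polr2e*, *Polr2i* and both entries of *Polr2h*, against 35.7% of all promoters. The 8 promoters had a median of 62.2% G and C and 27 CpG dinucleotides, against 52.7% and 7 over all promoters. The motif shares were not adjusted for this composition. The E-box CACGTG was found in 1 of the 8, at *Polr2h*, against 7.15% of all promoters. AGGTCA was found in 2 of the 8, at *Polr2e* and *Polr2f*, against 16.3%, and TATAAA in 2 of the 8, at *Polr2a* and *Polr2c*, against 13.6%. CCAAT matched at *Polr2c* and *Polr2i* (37.4% of all promoters), the ETS site CCGGAAG at *Polr2c* and *Polr2f* (8.86%), and the NRF1 site GCGCATGCG at *Polr2b* (1.75%). The YY1 site AAGATGGCG (1.4% of all promoters) and the CRE TGACGTCA (1.79%) were found in 0 of the 8. No matches of different motifs overlapped in these promoters, and a match describes letters in this window, not a bound site.

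RNAP2 occupied the *Polr2a* promoter more strongly than that of any other subunit gene, by a wide margin in both replicates. The strength of a peak is given as the −log10 p of the peak caller at the summit, which depends on depth and background and is ranked within a list, and as the fold enrichment over input at the summit. In replicate 1 the *Polr2a* peak reached 152.3 on the −log10 p scale and 43.2 in fold enrichment, the first of 87870 peaks in that list by either measure. In replicate 2 it reached 89.5 and 26.5, the third of 168821 peaks by either measure. Both summits lay in the untranslated first exon, 102 and 109 bp downstream of the TSS, and the peaks were 1433 and 1437 bp wide, where the median peak of the lists was 214 and 356 bp wide. The merged region spanned chr11:69757992-69759461 and ranked 3 of 10752 RNAP2 regions present in both replicates when each region was given the lower −log10 p of its replicates.

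In the *Polr2a* gene body RNAP2 was listed at the promoter and nowhere else. Peaks covered 2.47% of its 24641 bp gene body in replicate 1 and 2.62% in replicate 2, with 0 summits in the body farther than 1 kb from a TSS in either. Skeletal muscle marker genes had lower promoter peaks in both replicates but most had far wider cover. The actin gene *Acta1* had a promoter −log10 p of 131.1 and 39.9 and was covered over 100% of its length in both replicates. *Ckm*, the muscle creatine kinase, had 84.5 and 31.6 and a cover of 74.0% and 74.1%. *Myh1* was the exception, with 5.73% and 6.85%. Over the 8 muscle markers the median cover was 87.0% and 69.6%, and over the 6701 genes with an RNAP2 promoter region in both lists it was 2.16% and 4.16%, so that *Polr2a* was near the latter. The cover was not adjusted for gene length, which had a median of 16230 bp for the markers and 24274 bp for the 6701 genes. A weaker pair of RNAP2 peaks in the *Polr2a* window, with a −log10 p of 5.65 and 5.52, had summits 3 and 8 bp from the TSS of the neighbouring zinc finger gene *Zbtb4* and more than 7 kb upstream of *Polr2a*.

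**Figure D1:**
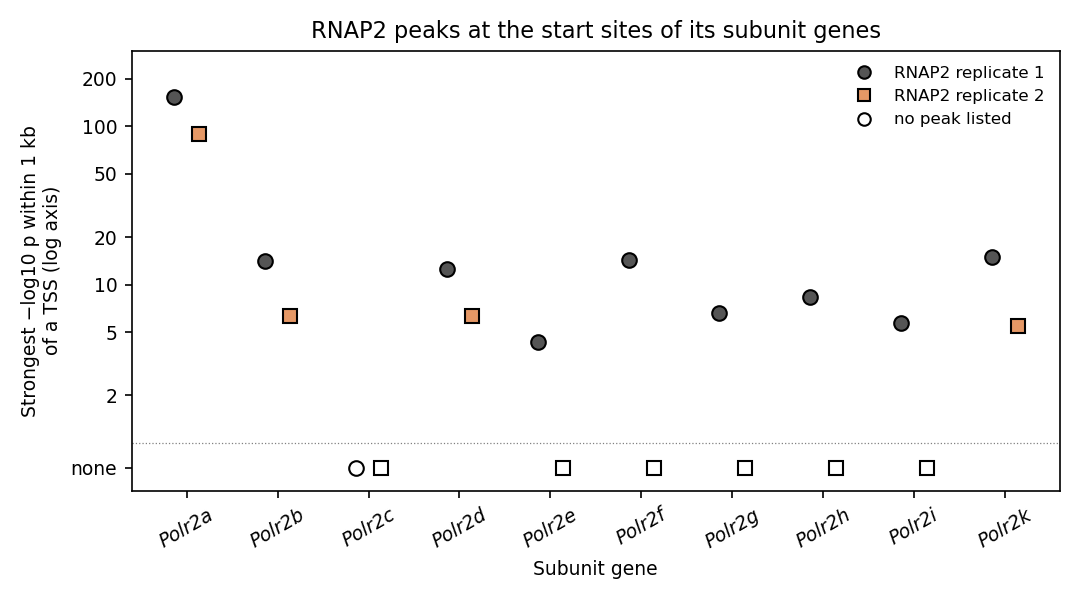
Strongest RNAP2 promoter peak (within 1 kb of a TSS) of each subunit gene, as −log10 p on a log axis, in replicate 1 (circles) and replicate 2 (squares), with open symbols for no listed peak. *Polr2a* stands at 152.3 and 89.5, *Polr2b*, *Polr2d* and *Polr2k* follow in both replicates, and 5 members have a value in replicate 1 only.

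Besides *Polr2a*, 3 promoters were listed in both RNAP2 replicates, those of *Polr2b*, *Polr2d* and *Polr2k*. At *Polr2b* the −log10 p was 14.0 in the first list and 6.33 in the second, with summits 249 and 279 bp downstream of the 5′ end of the gene, in untranslated exon sequence. *Polr2d* had 12.6 and 6.35, with summits 232 and 151 bp upstream of its 5′ end. *Polr2k* had 14.9 and 5.52, with summits 12 and 92 bp downstream. The 3 promoters were close to each other in both lists and far under *Polr2a*. Among protein-coding genes with a promoter peak they stood at percentiles 81.2 to 86.1 in replicate 1 and 70.3 to 75.5 in replicate 2. The regions were chr5:77309809-77310741 for *Polr2b*, chr18:31788782-31789366 for *Polr2d* and chr15:36173693-36174300 for *Polr2k*.

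The other promoters with RNAP2 were listed in replicate 1 only. *Polr2f*, a shared subunit gene, stood at a −log10 p of 14.4 with a summit 3 bp from an annotated TSS, close in that list to *Polr2b* and *Polr2k*, and had no promoter peak in replicate 2. *Polr2h*, another shared subunit, had 8.40, *Polr2g* 6.67, *Polr2i* 5.70 and *Polr2e* 4.34, each with a summit within 70 bp of an annotated TSS. Of these 5 peaks the one at *Polr2e* had a −log10 q of 1.26, just under the 1.3 that a false discovery rate of 0.05 requires, and the other 4 had from 2.43 to 10.5. In replicate 2 *Polr2g* had peaks only away from its TSS, with a −log10 p of at most 1.84, and *Polr2e*, *Polr2f*, *Polr2h* and *Polr2i* had none in their windows.

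The absence from replicate 2 of promoters listed in replicate 1 only was set beside other genes of the same strength. Of 3328 protein-coding genes with a replicate 1 −log10 p from 5 to below 10 at the promoter, 80.3% also had a replicate 2 peak there, and of the 3 members in that range, *Polr2g*, *Polr2h* and *Polr2i*, 0 had one. From 10 to below 20 the share was 93.7% of 2279 genes and 3 of 4 members, without *Polr2f*. From 3 to below 5 it was 57.2% of 3230 genes and 0 of 1 member, *Polr2e*. The list of replicate 2 was longer but weaker, with a median −log10 p of 1.99 against 3.21 in replicate 1. Why these promoters were not listed in replicate 2 was not tested.

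**Figure D2:**
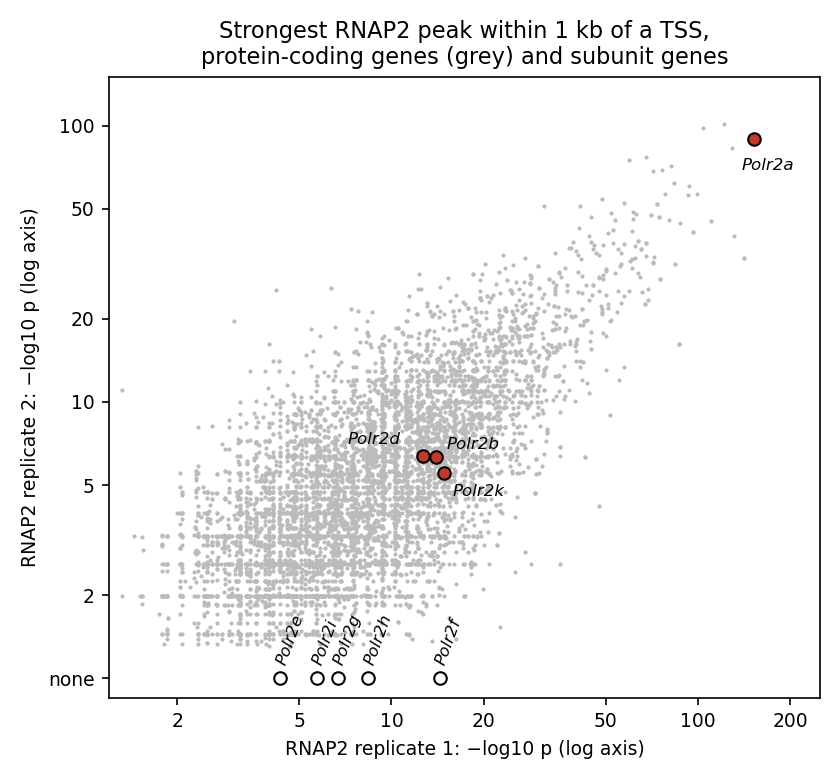
Strongest RNAP2 −log10 p at the promoter in replicate 1 (x, log axis) against replicate 2 (y, log axis) for protein-coding genes with a peak in both (grey), with the subunit genes in red, or open at the bottom where replicate 2 lists none. *Polr2a* lies farthest to the right of all genes, *Polr2b*, *Polr2d* and *Polr2k* lie within the main cloud, and *Polr2f* is open at 14.4.

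*Polr2c* was the exception among the promoters. Neither RNAP2 list had a peak within 1 kb of its TSSs. The single replicate 1 peak of its window had a −log10 p of 2.50 and a summit 1 bp from the TSS of *Coq9*, a gene of coenzyme Q synthesis, and the single replicate 2 peak had 1.99 and lay at the 3′ end of the gene, nearest to the TSS of *Dok4*.

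By count, 9 of 10 members had an RNAP2 promoter peak in replicate 1, where 49% of all protein-coding genes had one. In replicate 2 it was 4 of 10, where 47.9% had one, so the members stood above the background in the first list and near or below it in the second. A promoter region in both RNAP2 replicates was found at 4 of 10 members and at 30.5% of all genes, and in the gene body or within 10 kb of a TSS at the same 4 and at 41.1% of all genes. These shares in both replicates are near the background for the lists as deposited. At a −log10 q of at least 1.3 the same 4 members stood beside 15% of all genes at promoters and 18.9% in the windows. The median over the 10 members of the strongest RNAP2 −log10 p in the window was 10.5 in replicate 1 and 1.92 in replicate 2, and over all protein-coding genes it was 3.97 and 2.95. The density of peaks went the same way, with 81.0 peaks per Mb of member windows against 44.4 per Mb of all protein-coding windows in replicate 1, and 51.5 against 71.9 in replicate 2. The direction of the members against all genes therefore differed between the replicates for the median and the density. For the promoter count the members were above all genes in replicate 1 and near them in replicate 2. *Polr2a* was high in both replicates. Windows were not matched for size, with a median of 21798 bp for the members and 30206 bp for all protein-coding genes. With the shared subunits apart, 1 of 4 of them (*Polr2k*) and 3 of the 6 members particular to RNAP2 had an RNAP2 promoter region in both replicates.

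Several member promoters lie close to the start of another gene, and a peak there cannot be assigned to either of them. The TSS of *Noa1* lies 63 bp upstream of the 5′ end of *Polr2b*, that of the antisense transcript *Gm26533* lies 114 bp upstream of *Polr2d*, and that of *1700088E04Rik* lies 31 bp upstream of *Polr2f*. A TSS of *Clcn2* lies 81 bp inside *Polr2h*, and 1 of *Tbcb* lies 324 bp inside *Polr2i*. *Polr2a*, *Polr2c*, *Polr2e*, *Polr2g* and *Polr2k* had no such neighbour within 1 kb.

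**Figure D3:**
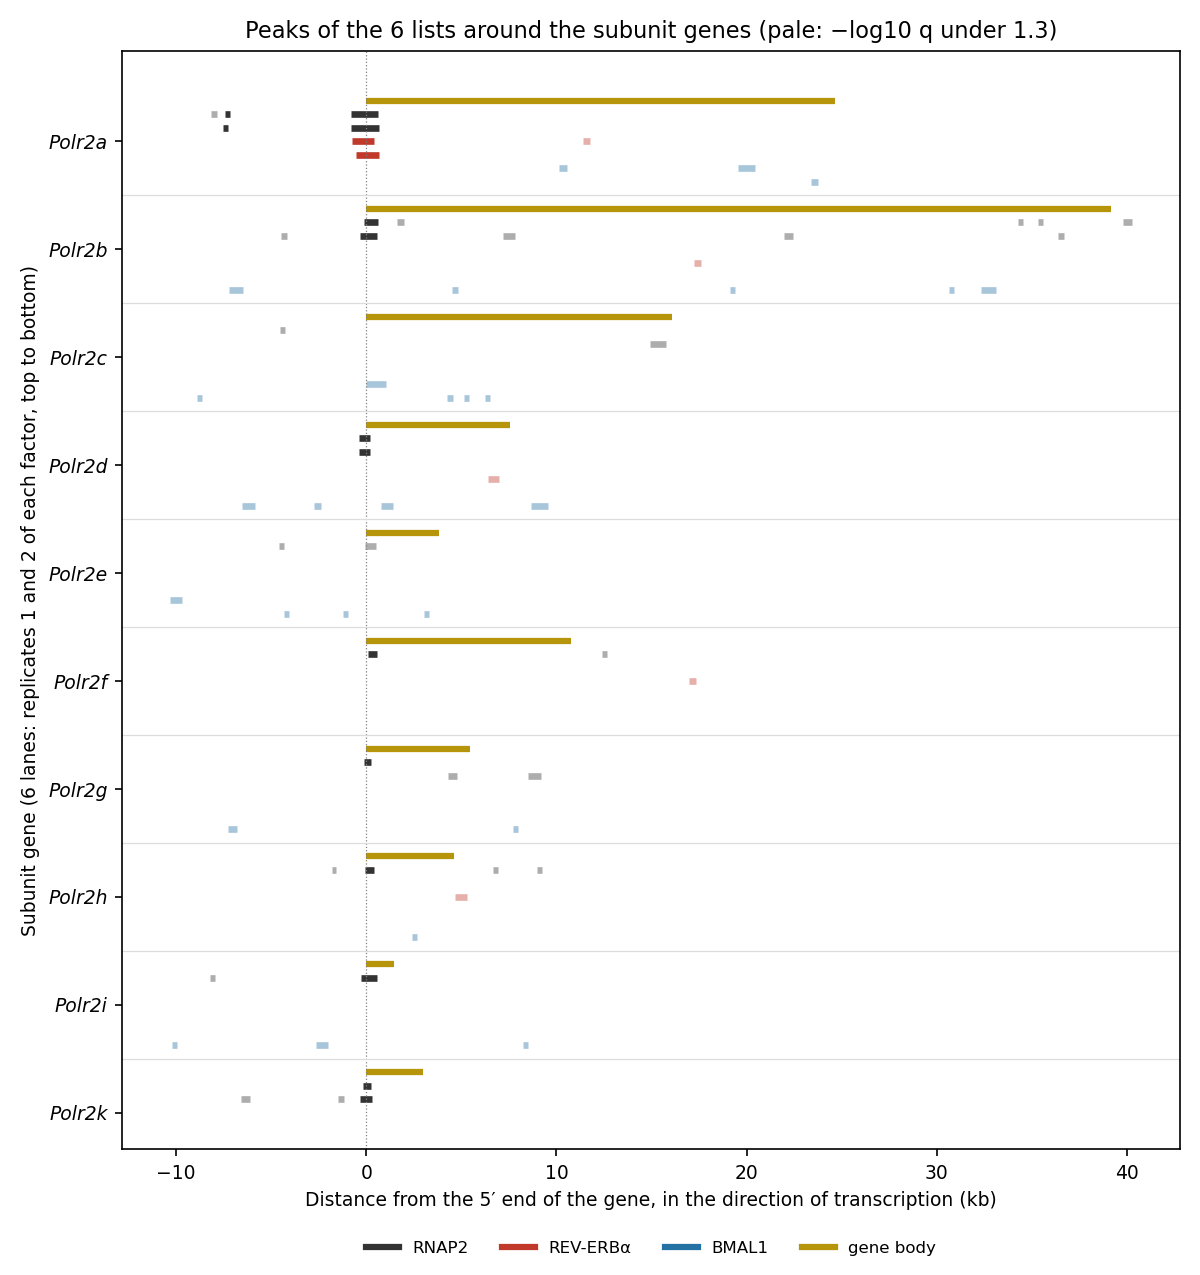
All peaks of the 6 lists around the subunit genes, by distance in kb from the 5′ end of each gene in the direction of transcription, with gene bodies in ochre and pale marks for peaks with a −log10 q under 1.3. RNAP2 marks cluster at 0 in 9 genes, dark REV-ERBα marks occur only at the *Polr2a* promoter, and all BMAL1 marks are pale.

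REV-ERBα was listed in both replicates at a single member, *Polr2a*. At its promoter REV-ERBα reached a −log10 p of 14.0 and 11.0 in replicates 1 and 2 and a fold enrichment of 5.81 and 5.10, and the peaks ranked 122 of 28881 and 145 of 29934 in their lists. The merged region, chr11:69757987-69759385, ranked 123 of 1263 REV-ERBα regions present in both replicates. The summits lay 152 and 243 bp upstream of the TSS, 254 and 352 bp from the RNAP2 summit of the same replicate number, and the intervals of REV-ERBα and RNAP2 overlapped over nearly their whole width. The 300 bp around the stronger REV-ERBα summit held 0 copies of AGGTCA and 0 of CACGTG, motifs that 19.2% and 5.23% of the 1263 regions held in the same window. A REV-ERBα region of both replicates was found in the windows of 4.44% of all protein-coding genes and at the promoters of 2%, against 1 of 10 members by either measure.

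REV-ERBα at promoters went along with RNAP2 strength over all genes, which is the setting of the *Polr2a* value. Of 81 protein-coding genes whose RNAP2 −log10 p at the promoter was at least 30 in both replicates, *Polr2a* among them, 34 or 42.0% also had REV-ERBα in both lists there. The share was 10.3% of 927 genes from 10 to below 30, 5.92% of 2129 genes from 5 to below 10, the range of *Polr2b*, *Polr2d* and *Polr2k*, and 3.05% of 3539 genes below 5. Among the 20 strongest RNAP2 regions 8 overlapped a REV-ERBα region, among the 100 strongest 35, and among all 10752 regions 427. The share with a BMAL1 region was also higher among strong RNAP2 regions, at 2 of the 20, 11 of the 100 and 106 of all 10752. The RNAP2 samples were taken at ZT 4 and the REV-ERBα samples at ZT 8, and the labelled input library was of ZT 4. The part of RNAP2 strength in the REV-ERBα peak at *Polr2a* was not tested.

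The remaining 5 REV-ERBα peaks in member windows were each listed once and had a deposited −log10 q of 0. They had a −log10 p of 3.45 in the body of *Polr2a*, 2.65 in an intron of *Polr2b*, 2.72 in an intron of *Polr2d*, 2.50 more than 7 kb from any TSS of *Polr2f* and 1.52 beyond the 3′ end of *Polr2h*. *Polr2c*, *Polr2e*, *Polr2g*, *Polr2i* and *Polr2k* had no REV-ERBα peak in either list.

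BMAL1 had no region in both replicates at any member, where 6.81% of all protein-coding genes had one in their windows. Replicate 1 listed 4 peaks in the windows of 3 members, where 38.2% of all protein-coding genes had a peak in theirs, with a −log10 p from 1.97 to 2.48. Replicate 2, a list of 177669 peaks, listed 23 peaks in the windows of 8 members, where 84.4% of all genes had one, with a −log10 p from 1.40 to 4.25. Both shares were near the background, and the density in replicate 2 was 84.6 peaks per Mb of member windows against 78.4 per Mb of all protein-coding windows. All peaks of both lists in member windows had a deposited −log10 q of 0. The highest were 4.25 in a coding exon of *Polr2b*, 4.25 downstream of *Polr2d* and 4.18 in an intron of *Polr2d*, 916 bp from its TSS, all in replicate 2. At *Polr2a* BMAL1 had 2.02 and 1.97 in replicate 1 and 1.87 in replicate 2, all in the gene body with summits at least 1095 bp from a TSS. The edge of the peak with 1.97 reached within 1 kb of an annotated TSS inside the gene. None of the 3 overlapped the RNAP2 region at the 5′ end of the gene. At *Polr2c* a weak BMAL1 peak of replicate 1 with a −log10 p of 2.29 lay 22 bp from a TSS, in coding sequence, and replicate 2 had 1.87 at 180 bp from another TSS of the gene, in an intron, without overlap between them. Sites listed in 3 or more of the 4 samples of these clock factors were counted at 0 of 10 members and at 1.62% of all genes.

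The same lists held peaks of both clock factors at genes known to be bound by them. *Dbp*, an output gene of the clock, had a BMAL1 −log10 p of 15.1 and 9.72 and a REV-ERBα −log10 p of 9.78 and 20.2 at its promoter, and *Per1*, *Ciart* and *Nr1d1* likewise had regions of both factors in both replicates. REV-ERBα at *Per1* (4.27 and 6.33) and *Nr1d1* (6.24 and 5.39) was lower than at *Polr2a* in both replicates. At *Dbp* and *Ciart* it was lower than at *Polr2a* in replicate 1 only. The tissue was checked in the RNAP2 lists. All 8 skeletal muscle markers had a promoter region in both lists, with a median −log10 p of 66.1 and 31.7, and 0 of the 10 markers of liver, blood, endothelium, fat, and neurons and glia did, with a highest −log10 p of 5.65 at *Cdh5* in replicate 1. The lowest muscle marker, *Myh1*, had 5.70 and 2.26, in replicate 1 close to *Cdh5*. REV-ERBα had a promoter region in both lists at 7 of the 8 muscle markers. Of all protein-coding genes, 30.5% had such a region of RNAP2 and 2% of REV-ERBα. BMAL1 had a region in both lists in the windows of 7 of the 8 muscle markers, against 6.81% of all protein-coding genes.

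Other genes of the transcription machinery were counted from lists of the general factors and of the other polymerases. An RNAP2 promoter region of both replicates was found at 14 of 18 initiation factor genes, 13 of 18 elongation factor genes and 9 of 16 genes for subunits found only in RNA polymerase I or III, against 4 of 10 members and 30.5% of all protein-coding genes. *Gtf2a1*, which encodes subunits of TFIIA, had the highest of them with 57.3 and 52.6, under *Polr2a* in both replicates. *Hexim1*, an inhibitor of the elongation kinase P-TEFb, had 49.1 and 28.9. The median replicate 1 −log10 p at the promoter was 8.46 for initiation factors, 9.27 for elongation factors, 5.70 for the subunits of RNA polymerase I or III and 10.5 for the members. In replicate 2 it was 4.63, 4.37, 2.36 and, for the members, 0. REV-ERBα had a promoter region in both lists at 0 of 18 initiation factors, at 3 of 18 elongation factors (*Ssrp1*, *Nelfa* and *Hexim1*) and at 2 of 16 subunits of the other polymerases, against 1 of 10 members and 2% of all protein-coding genes. *Polr1a*, which encodes the largest subunit of RNA polymerase I, was among the last with a REV-ERBα −log10 p of 11.5 and 15.2, while its RNAP2 −log10 p was 10.5 and 2.60. *Hexim1* had a REV-ERBα −log10 p of 14.9 and 16.8, and *Ssrp1* had 9.79 and 10.2. It was weak, at 2.50 and 2.15, at *Nelfa* and also at *Polr3e*, the second of the subunits of the other polymerases.

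**Figure D4:**
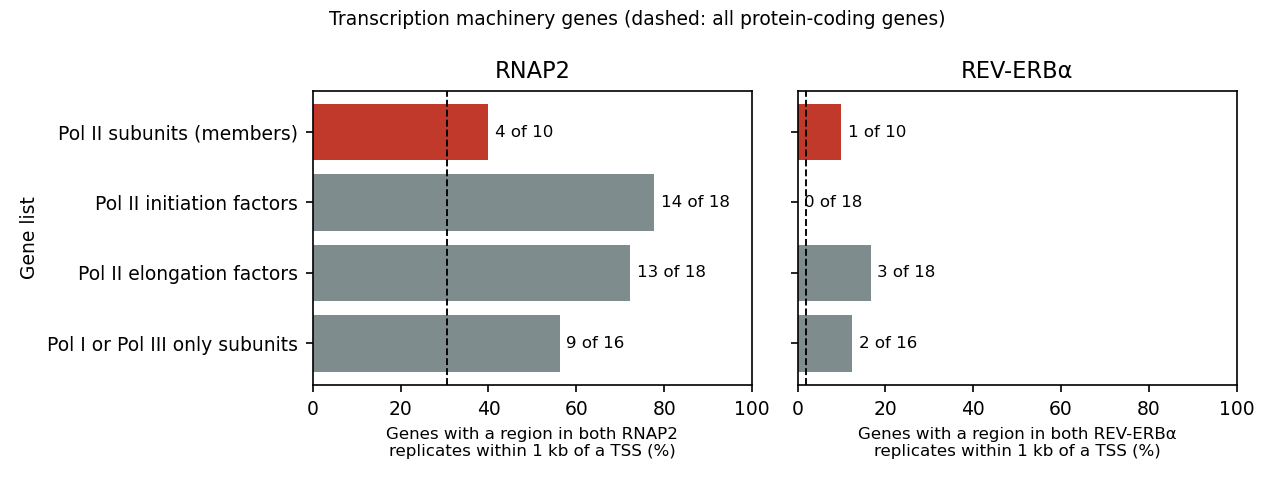
Percent of genes of each list with a promoter region (1 kb) listed in both samples, for RNAP2 (left) and REV-ERBα (right), with the number of genes beside each bar and a dashed line at the share of all protein-coding genes. The members reach 4 of 10 for RNAP2, near the dashed line at 30.5%, and the initiation factors 14 of 18.

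The genes whose profile over the 6 lists was nearest to that of *Polr2a* were found by the Euclidean distance of log2(1 + strongest −log10 p). *Tob1*, an antiproliferative gene, was nearest at a distance of 1.12, with an RNAP2 −log10 p of 104.3 and 98.0, a REV-ERBα −log10 p of 8.67 and 7.95 and a BMAL1 −log10 p of 3.46 and 2.40. *Gapdh*, a glycolytic enzyme, and its neighbour *Ncapd2* followed at 1.47. They share the same peaks, with an RNAP2 −log10 p of 80.4 and 45.3 and a REV-ERBα −log10 p of 13.1 and 10.2.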

How the data were processed

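ChIP-seq peak lists were taken as deposited, 1 for each of the 6 immunoprecipitated samples. The authors aligned reads to mm10 with BWA version 7.12, removed duplicates, kept reads with a mapping quality of at least 24, down-sampled the replicates of each factor to nearly equal numbers of unique reads and called peaks on each sample with Macs2 version 2.1.1, with input DNA as control and 0.05 as the limit of the p-value. The deposited fold enrichment is the ratio of the summit signal to the input background, and the deposited −log10 p and −log10 q are those of the authors' peak calling. The input library had no peak list. Reads were not used here, so the reads behind a single peak are unknown and no counting interval is given. The lists held 87870 and 168821 peaks for RNAP2, 28881 and 29934 for REV-ERBα, and 34737 and 177669 for BMAL1 (replicates 1 and 2).

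Replicate peaks of a factor were joined into a region where they shared 1 bp or more, and regions with peaks from both lists were counted. Genes and TSSs were those of GENCODE M21. The members, gene lists, motifs and classes of strength were chosen with earlier results of these data known. The named genes are the members, neighbours whose TSS lies within 1 kb of a member's or nearest to a region in both replicates, the nearest TSSs of the 2 *Polr2c* window peaks (added after their values were seen), the 3 genes with the profile most like that of the member with the strongest RNAP2 peak, tissue markers and 2 to 4 examples per list. Promoter sequences were from RefSeq and motifs were exact matches. Alternatives were other distances, stricter thresholds, equal list sizes, a larger overlap, protein-coding TSSs only, and each replicate left out. Python version 3.11.15, numpy 2.4.6 and pysam 0.24.0 were used, and the assignment of peaks was tested on simulated peaks at known places.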

Additional observations from a re-analysis of the deposited data

How the results depend on the processing

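Of 67 alternative values, 56 stayed within 1.5 times the reported count or within the spread of the replicates, and 11 moved. Among the 56 are counts of 0 members for BMAL1 and for sites shared by BMAL1 and REV-ERBα. Stricter settings only remove peaks or regions, so these counts could not rise and do not measure stability. The 56 also hold the RNAP2 median of replicate 2, which fell to 0 within 1 kb of a TSS. Medians of fold enrichment, also among them, are in another unit than −log10 p. *Polr2a*, *Polr2b*, *Polr2d* and *Polr2k* remained the members with an RNAP2 region in both replicates, and *Polr2a* the only member with such a REV-ERBα region, at a −log10 p of at least 3, at a −log10 q of at least 1.3, with equal list sizes and with a larger overlap. For RNAP2 the share of all protein-coding genes was 41.1% before, 29.4% at that −log10 p and 18.9% at that −log10 q. For REV-ERBα it was 4.44%, 2.47% and 1.37%. With equal list sizes the shares were 37% for RNAP2 and 4.35% for REV-ERBα, and with the larger overlap 38.5% and 3.8%. With a replicate left out, a peak in the remaining list of that factor is enough, so its count can only stay or rise. Leaving out RNAP2 replicate 1 gave 6 members (86.5% of all protein-coding genes) and an unchanged 4 within 1 kb of a TSS (47.9%), and leaving out RNAP2 replicate 2 gave 10 (76.9%) and 9 (49%). Leaving out either REV-ERBα replicate gave 3 members (40.1% of all genes without replicate 1, 38.7% without replicate 2), and leaving out BMAL1 replicates 1 and 2 gave 8 (84.4%) and 3 (38.2%). A site shared by BMAL1 and REV-ERBα was then required in all 3 remaining lists. This is stricter than 3 of 4, so the count of 0 members could not rise and these cases do not measure stability. At a −log10 p of at least 3 the peaks in member windows dropped from 14 to 5 for RNAP2 replicate 2, from 4 to 2 and from 3 to 1 for REV-ERBα replicates 1 and 2, and from 4 to 0 and from 23 to 3 for BMAL1 replicates 1 and 2. No paired analysis was possible because the results are counts of peaks and come from no test. Differences at weak promoters are limited by the lack of reads per peak.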
